A study of Mus musculus with 32 samples.

Results

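The unfolded protein response and the integrated stress response are represented here by 35 genes, taken by symbol from the 55487 gene rows of an mRNA count table of whole mouse liver. The list was given by symbol in 6 roles: 14 chaperones and folding factors of the endoplasmic reticulum (ER), 4 genes of ER-associated degradation, 4 sensors and their factors, 4 transcription factors of the integrated stress response, 4 of its feedback and effector genes, and 5 enzymes of amino acid and one-carbon metabolism. All 35 symbols were found, on 36 rows, because Ddit3 had a second identifier that held counts in 1 library only and was not used. Levels are given in counts-per-million (CPM) units. A gene was tested when at least 8 libraries reached the CPM that equals 10 counts at the median depth, and 34 of the 35 did so; Phgdh did not.

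The 32 libraries fell into 4 groups of 8: FAAH S268D livers on the NASH-AA diet, FAAH S268D livers on the NASH diet, WT livers on NASH-AA and WT livers on NASH. FAAH is fatty acid amide hydrolase, an enzyme that breaks down fatty acid amides such as anandamide and the N-acyl taurines, and S268D replaces 1 of its amino acids in the mutant mice. Per the series text, mice of both genotypes were fed HFFC for 28 weeks, to which ARA was added or not; the diets bear the names NASH-AA and NASH in the labels. A change of 1 amino acid cannot be checked from gene counts. No group was kept on another diet, so every comparison is between livers on one of these 2 diets. The labels do not say that the replicates were separate animals, so p-values measure the spread between these libraries. They give neither sex nor age.

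Proteins that enter the secretory pathway fold in the ER with the help of chaperones such as BiP, the product of Hspa5. When unfolded protein builds up, the sensors IRE1 (Ern1), ATF6 and PERK (Eif2ak3) are activated: IRE1 splices the Xbp1 transcript, ATF6 is cut to release a transcription factor, and PERK phosphorylates the translation factor eIF2. The phosphorylation of eIF2, also made by kinases that sense amino acid shortage, viral RNA or heme deficiency, is the common step of the integrated stress response, and it raises the translation of ATF4, which switches on genes of amino acid supply and of feedback. Hepatocytes secrete most plasma proteins and depend on this machinery. Gene counts show transcript amounts; they show neither Xbp1 splicing nor phosphorylation of eIF2 nor the translation of Atf4.

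The promoters of several of these genes hold short elements known from that literature, and some are printed here to show these elements in genes described below. Of the 32 genes with a promoter window, 14 held at least 1 of the elements searched. The elements were known beforehand from genes of this kind. The shares of all genes given beside them are therefore descriptive and no test of an excess. The windows ran from 250 bases before to 50 bases after each RefSeq start (GRCm38.p6) and were at hand for those 32 of the 35 genes. The ER stress element, searched on both strands as CCAAT, 9 bases of any kind and CCACG, is bound by ATF6 with NF-Y. It occurred in 8 of the 32 (Hspa5, Hsp90b1, Calr, Canx, Pdia6, Dnajc3, Creld2 and Syvn1), against 0.137% of all 27025 genes with a window. The related ERSE-II, which is ATTGG, 1 base of any kind and CCACG, occurred in 2 of the 32, Dnajb11 and Herpud1, against 0.0444% of all genes. In the following stretches of the strand that carries the gene, read 5′ to 3′, capitals mark the match, which stands on the other strand where it begins with CGTGG.
Hspa5, chr2:34772010-34772058: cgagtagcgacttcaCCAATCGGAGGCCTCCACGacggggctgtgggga
Hsp90b1, chr10:86705518-86705671: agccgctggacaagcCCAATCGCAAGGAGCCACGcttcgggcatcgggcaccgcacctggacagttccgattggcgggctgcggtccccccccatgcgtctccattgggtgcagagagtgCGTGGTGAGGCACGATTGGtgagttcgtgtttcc
Creld2, chr15:88819505-88819553: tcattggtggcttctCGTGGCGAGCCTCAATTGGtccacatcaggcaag
Syvn1, chr19:6046517-6046565: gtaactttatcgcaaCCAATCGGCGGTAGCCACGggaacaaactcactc
Herpud1, chr8:94386362-94386402: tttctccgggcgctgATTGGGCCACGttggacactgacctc
Hsp90b1 held 2 matches, 1 on each strand. The UPR element, TGACGTGG, was in 0 of the 32 windows and in those of 0.714% of all genes.

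The C/EBP-ATF response element, searched as TGATGNAAN on both strands, is the kind of site that ATF4 binds with a C/EBP partner. It was in 5 of the 32 windows (Herpud1, Atf3, Trib3, Chac1 and Asns), against 4.5% of all genes. Its 2 N positions take any base. In the members' windows, 0 matches of one element overlapped a match of another. A match describes the letters only.
Atf3, chr1:191183421-191183459: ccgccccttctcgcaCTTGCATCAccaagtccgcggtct
Chac1, chr2:119351033-119351071: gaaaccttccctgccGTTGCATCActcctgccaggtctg
Asns, chr6:7693210-7693247: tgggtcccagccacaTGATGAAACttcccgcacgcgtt
The matches of Atf3 and Chac1 stand on the other strand. Herpud1 alone of the 32 held both an ERSE-II and this element.

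Total counts ran from 3851626 in FAAH S268D NASH replicate 1, the shallowest library, through 14743252 in the next to 34370179 in the deepest. The summed level of 12 hepatocyte markers was between 58540 and 111000 CPM in the 32 libraries, and albumin was detected in all of them. Library names in the labels carry numbers from 1 to 32, and each group had libraries in both ranges, 1 to 16 and 17 to 32 (3 to 5 in numbers 1 to 16, 3 to 5 in 17 to 32). The labels do not call these ranges batches; values within each are given below because values differed between them.

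**Figure D1:**
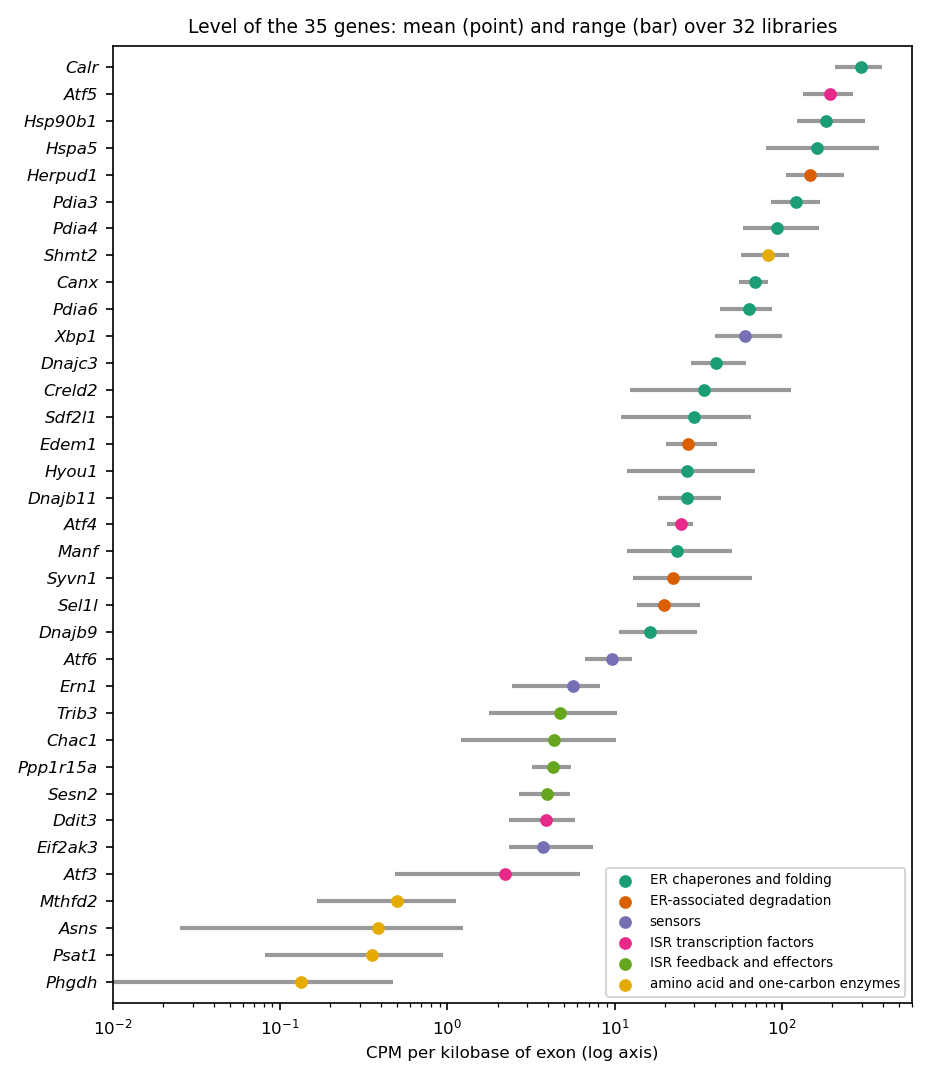
Mean level of each of the 35 genes over the 32 libraries (points, coloured by role) with the lowest to highest library (grey bars), in CPM per kilobase of exon on a log axis; the bar of Phgdh starts at 0, which a log axis cannot show. Calr is highest at 299 CPM per kilobase, and 5 genes, Atf3 and 4 enzymes, lie below all others.

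Per kilobase of exon, 4 of the 6 most abundant genes of the list were chaperones or folding factors. Calr, which encodes the lectin chaperone calreticulin, led with a mean level of 299 CPM per kilobase, followed by the transcription factor Atf5 at 193, Hsp90b1 (GRP94) at 183, Hspa5 at 162 and Herpud1 at 147. The sensors were far less abundant, with mean levels of 9.68 CPM per kilobase for Atf6, 5.62 for Ern1 and 3.75 for Eif2ak3. At the bottom stood Atf3 (2.20), Mthfd2 (0.497), Asns (0.386), Psat1 (0.352) and Phgdh (0.134). Shmt2, another enzyme of the one-carbon pathway, had 82.6 CPM per kilobase. The genes also differed in how far libraries lay apart. Atf4 spanned only 1.45-fold between its lowest and highest library and the lectin chaperone Canx 1.48-fold, whereas Atf3 spanned 12.9-fold, Creld2 9.20-fold, Chac1 8.39-fold, Sdf2l1 5.99-fold, Trib3 5.82-fold and Hyou1 5.77-fold. At the low counts of the enzymes, Asns spanned 48.9-fold, Psat1 11.5-fold and Mthfd2 6.78-fold.

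**Figure D2:**
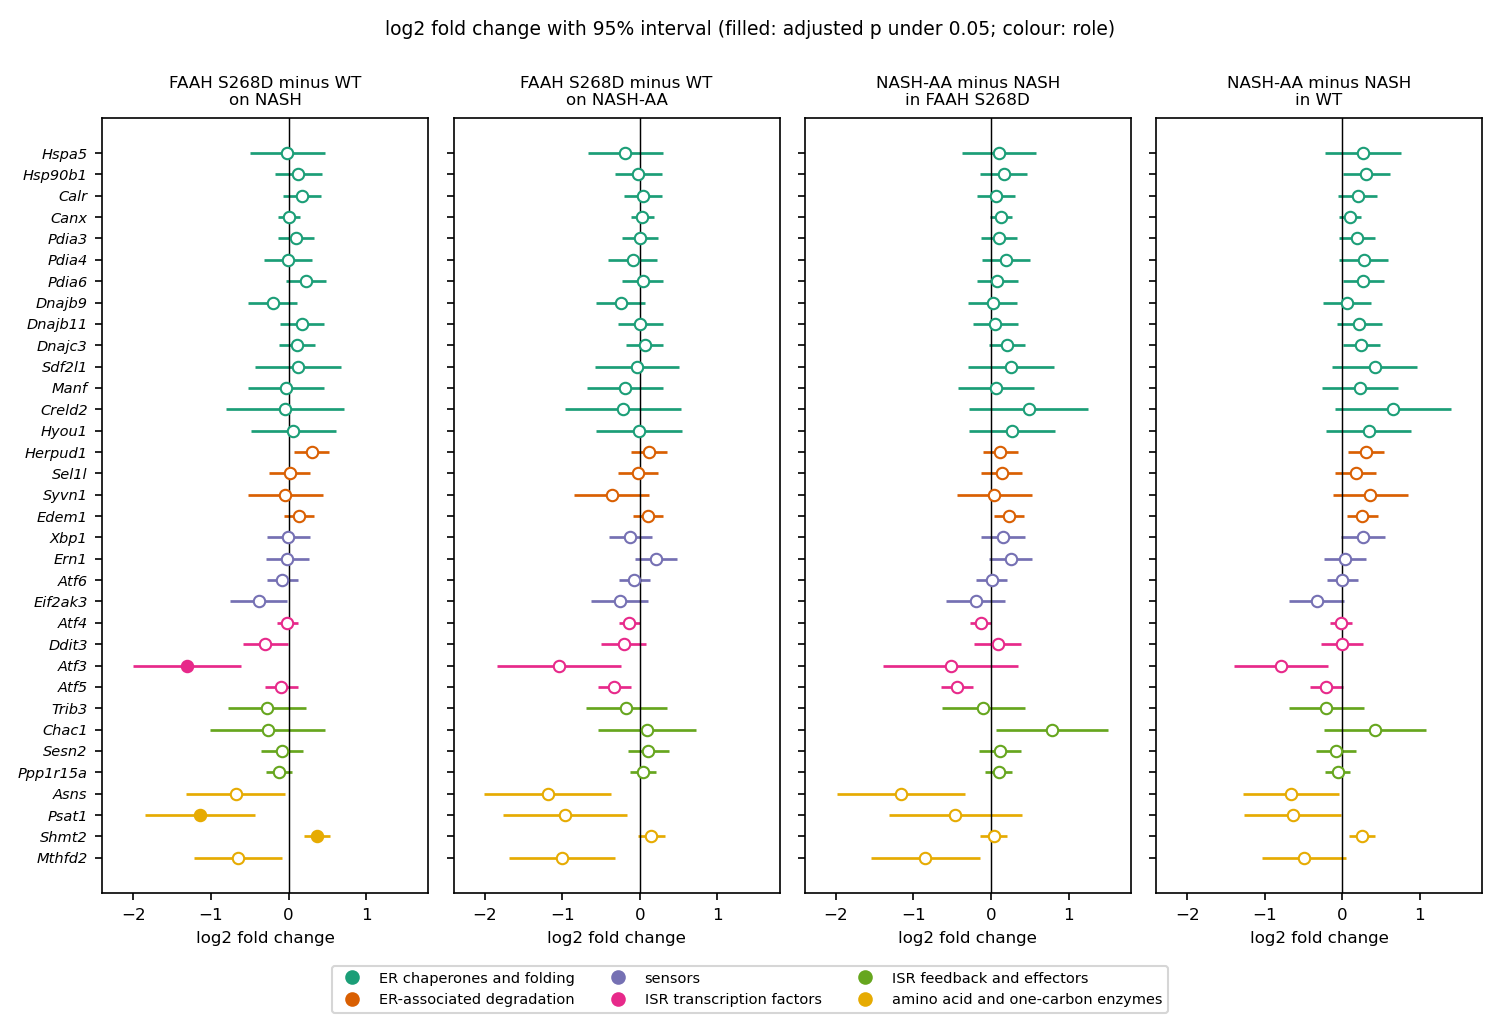
Log2 fold changes (points) with 95% intervals (bars) of the 34 tested genes in the 4 comparisons between groups of 8 libraries; filled points passed the test, and colour marks the role. Only Atf3, Psat1 and Shmt2 are filled, all in FAAH S268D against WT livers on NASH.

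Diet was compared within each genotype and genotype within each diet, with limma-voom over all 14903 genes tested and Benjamini-Hochberg adjustment (threshold 0.05). In the genotype comparison on NASH, 3 of the 34 genes passed. Atf3 and Psat1 fell in FAAH S268D livers and Shmt2 rose. In that comparison 9.19% of all genes passed, 2.89% higher and 6.30% lower, so the share of the list is close to that of all genes. In the other 3 comparisons 0 of the 34 passed: NASH-AA against NASH in FAAH S268D livers (0.0939% of all genes passed), NASH-AA against NASH in WT livers (4.41%) and FAAH S268D against WT on NASH-AA (0.658%). The count of 0 for diet in WT livers depended on the setting. Sample quality weights, which give less weight to libraries that deviate more, gave 9 of the 34 (Pdia6, Dnajc3, Herpud1, Edem1 and Shmt2 higher, Eif2ak3, Atf3, Psat1 and Mthfd2 lower), with 25.2% of all genes. Leaving out WT NASH replicate 5 gave 4 (Shmt2 higher, Atf3, Psat1 and Mthfd2 lower), with 14.7% of all genes. Without adjustment, p was under 0.05 for 8 of the 34 genes in the genotype comparison on NASH (25.7% of all genes), 5 on NASH-AA (15.5%), 5 for diet in FAAH S268D livers (12.4%) and 9 for diet in WT livers (24.4%). Limma-trend also gave 0 calls in these 3 comparisons. Comparisons that share a group share its libraries, so their values are not independent of each other.

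**Figure D3:**
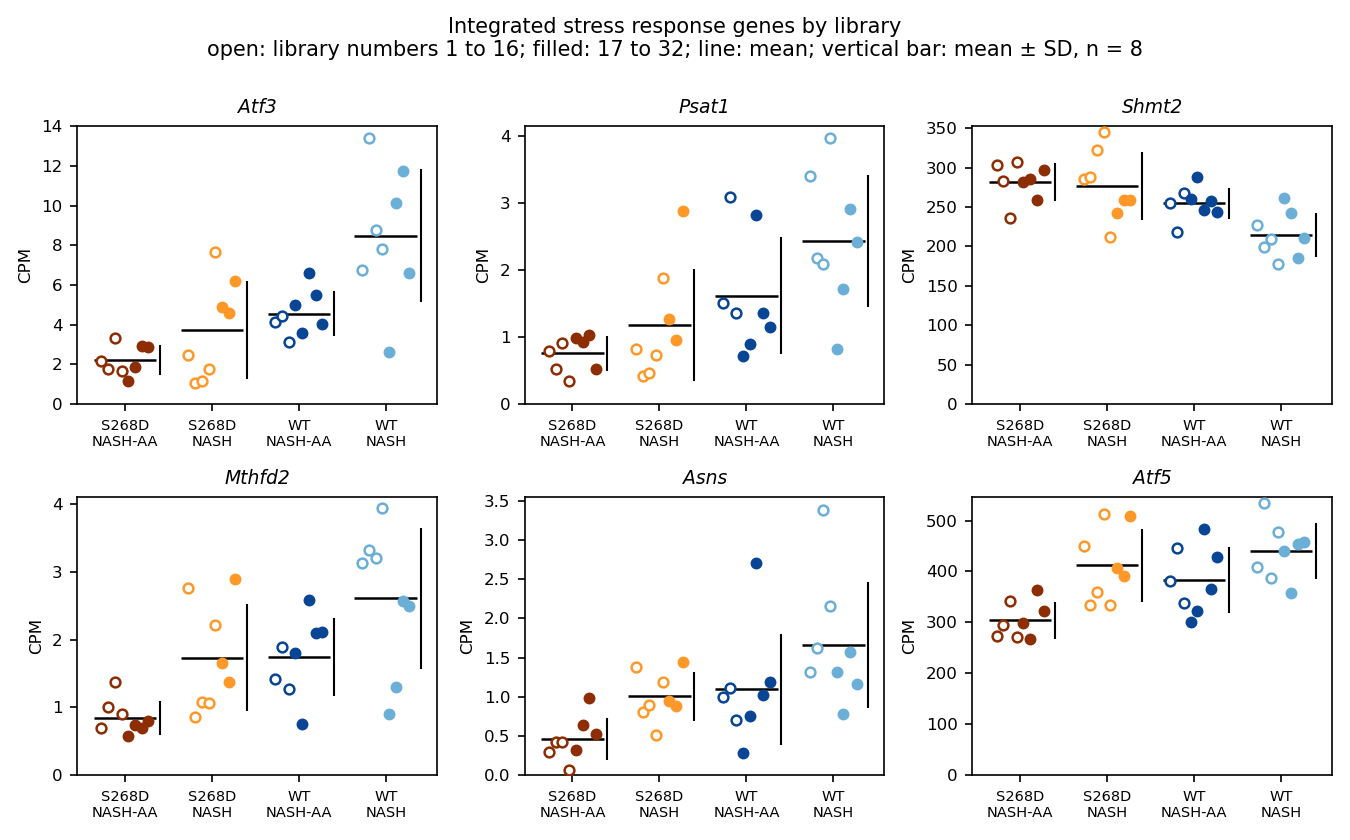
CPM of 6 integrated stress response genes in each library (points; open, library numbers 1 to 16; filled, 17 to 32), with the group mean (line) and mean ± SD (vertical bar), n = 8 per group. Atf3 averages 3.73 CPM in FAAH S268D NASH and 8.48 CPM in WT NASH livers, with overlap.

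Among the transcription factors, Atf3, a stress-induced repressor and activator of the ATF family that lies on chr1:191170296-191218039 (GRCm38, minus strand), showed the largest change. It ranged from 1.04 to 7.69 CPM in FAAH S268D livers on NASH (median 3.54), against 2.63 to 13.4 CPM in WT livers on NASH (median 8.29). The means were 3.73 ± 2.48 and 8.48 ± 3.36 CPM (SD, n = 8 each). All 8 FAAH S268D libraries lay under the WT median and 4 lay under the lowest WT library. The log2 fold change was -1.31 ± 0.34 (SE; adjusted p = 0.0156, limma-voom). On NASH-AA, Atf3 had 1.16 to 3.32 CPM in FAAH S268D livers (median 2.02), against 3.11 to 6.62 CPM in WT livers (median 4.28), and 7 of the 8 FAAH S268D libraries were under the lowest WT library. That log2 fold change, -1.04 ± 0.39, did not pass (adjusted p = 0.206, limma-voom), nor did the diet difference in FAAH S268D livers (-0.52 ± 0.43) or in WT livers (-0.79 ± 0.30).

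The other 3 factors of this role did not pass in any comparison. Atf4 was nearly level, with 54.3 ± 4.45, 59.7 ± 7.47, 59.6 ± 5.38 and 60.1 ± 3.60 CPM in FAAH S268D NASH-AA, FAAH S268D NASH, WT NASH-AA and WT NASH livers (SD, n = 8 each). Ddit3, which encodes the pro-apoptotic factor CHOP, had group means between 6.10 and 7.18 CPM. Atf5, a relative of Atf4 under the same kind of translational control, had 267 to 364 CPM in FAAH S268D livers on NASH-AA (median 296) and 333 to 512 CPM in FAAH S268D livers on NASH (median 399). In that comparison 6 of the 8 NASH-AA libraries lay under the lowest NASH library, and the log2 fold change was -0.44 ± 0.10 (adjusted p = 0.0681, limma-voom). Against WT livers on NASH-AA, which had 302 to 483 CPM, it was -0.33 ± 0.10 (adjusted p = 0.142). Atf5 shares 82 of its exon bases (4.11%) with Il4i1 and Nup62 on the opposite strand, and reads there could have been counted for either.

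Psat1, on chr19:15904678-15947337 (GRCm38, minus strand), encodes the aminotransferase of the serine synthesis pathway. It ranged from 0.427 to 2.89 CPM in FAAH S268D livers on NASH (median 0.895), against 0.823 to 3.98 CPM in WT livers on NASH (median 2.30). Under the WT median lay 7 of the 8 FAAH S268D libraries, and the log2 fold change was -1.14 ± 0.35 (adjusted p = 0.0339, limma-voom). These levels rest on few reads: 3 to 60 counts per FAAH S268D library and 20 to 105 per WT library. On NASH-AA it averaged 0.756 ± 0.256 CPM in FAAH S268D livers and 1.62 ± 0.874 CPM in WT livers (SD, n = 8 each; log2 fold change -0.96 ± 0.39, adjusted p = 0.235, limma-voom).

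Shmt2, the mitochondrial serine hydroxymethyltransferase that feeds one-carbon units from serine (chr10:127517123-127522444, GRCm38, minus strand), differed in the opposite direction. It ranged from 212 to 345 CPM in FAAH S268D livers on NASH (median 272), against 178 to 261 CPM in WT livers on NASH (median 211). All 8 FAAH S268D libraries lay over the WT median and 4 over the highest WT library, with a log2 fold change of 0.37 ± 0.08 (adjusted p = 0.00765, limma-voom). Between WT NASH-AA livers (218 to 288 CPM) and WT NASH livers the log2 fold change was 0.25 ± 0.08 and did not pass (adjusted p = 0.0685). On NASH-AA, FAAH S268D livers had 236 to 307 CPM and WT livers 218 to 288 CPM, a log2 fold change of 0.15 ± 0.08 (adjusted p = 0.413).

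The other enzymes of this role were low and did not pass. Mthfd2, the mitochondrial methylenetetrahydrofolate dehydrogenase, averaged 0.847 ± 0.251 CPM in FAAH S268D livers on NASH-AA, 1.73 ± 0.795 in FAAH S268D livers on NASH, 1.74 ± 0.571 in WT livers on NASH-AA and 2.61 ± 1.04 in WT livers on NASH (SD, n = 8 each). Asns, asparagine synthetase, whose promoter element is printed above, averaged 0.458 ± 0.2698, 1.01 ± 0.313, 1.095 ± 0.712 and 1.66 ± 0.803 CPM in those groups. For Asns the log2 fold change between diets in FAAH S268D livers was -1.16 ± 0.40 (adjusted p = 0.229, limma-voom), on 1 to 20 counts per NASH-AA library. Phgdh, the first enzyme of serine synthesis, had group means between 0.211 and 0.547 CPM and was not tested. It shares transcript sequence with 12 other annotated genes, 1 of which holds 44.9% of its 31-base words, so its counts are uncertain.

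The genotype differences on NASH were larger in the libraries numbered 1 to 16. In these alone (5 FAAH S268D and 4 WT libraries), 4 of the 34 genes passed, with 6.36% of all genes. The log2 fold changes were -2.05 ± 0.41 for Atf3, -1.86 ± 0.40 for Psat1, -1.35 ± 0.25 for Mthfd2 and 0.51 ± 0.13 for Shmt2 (adjusted p between 0.0129 and 0.0374, limma-voom). In the libraries numbered 17 to 32 (3 and 4 libraries), 0 of the 34 passed, with 0.105% of all genes, and the values were -0.42 for Atf3, -0.31 for Psat1, 0.10 for Mthfd2 and 0.17 for Shmt2. The difference between the ranges itself, in a test added after seeing the data, did not pass for any of the 34 (lowest adjusted p = 0.326). Fitted with the 2 compared groups alone, the 3 calls were also lost, with log2 fold changes of -1.31, -1.14 and 0.37 and adjusted p of 0.113, 0.121 and 0.0831 (limma-voom). The share of all genes that passed in that fit is not given here. The loss is therefore not a result about these 3 genes in particular.

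Markers of other cells moved in the same comparison. Of 12 monocyte and macrophage markers, 10 fell in FAAH S268D livers on NASH (6.30% of all genes fell), with a summed level of 296 to 930 CPM (median 592), against 481 to 1416 CPM in WT livers on NASH (median 980). None of the 12 was at 0 in any library. Also lower were 3 of 7 tested T and NK cell markers (Cd3e, Cd8a and Trac), 2 of 3 tested neutrophil markers (S100a9 and Csf3r), 2 of 7 Kupffer cell markers (Cd5l and Adgre1) and 1 of 9 stellate cell markers (Timp1). Of 12 hepatocyte markers, 4 rose (2.89% of all genes rose), with sums of 66520 to 111000 CPM in FAAH S268D and 58540 to 86230 CPM in WT livers. Their part in the changes of Atf3, Psat1 and Shmt2 was not tested. In bulk liver, fewer cells of a type and less RNA per cell cannot be told apart.

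The feedback and effector genes did not pass in any comparison. Trib3, a pseudokinase that restrains ATF4 signalling, had group means between 8.45 and 11.4 CPM. Sesn2, a stress-induced regulator of mTORC1, lay between 12.96 and 14.5 CPM and Ppp1r15a, the GADD34 subunit that guides eIF2 dephosphorylation, between 11.8 and 13.1 CPM. Chac1, which degrades glutathione, varied most. It had 4.97 to 15.1 CPM in FAAH S268D livers on NASH-AA (median 7.43), against 1.98 to 15.3 CPM in FAAH S268D livers on NASH (median 3.49). The highest of these libraries were of both diets, and the log2 fold change of 0.79 ± 0.35 did not pass (adjusted p = 0.358, limma-voom).

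**Figure D4:**
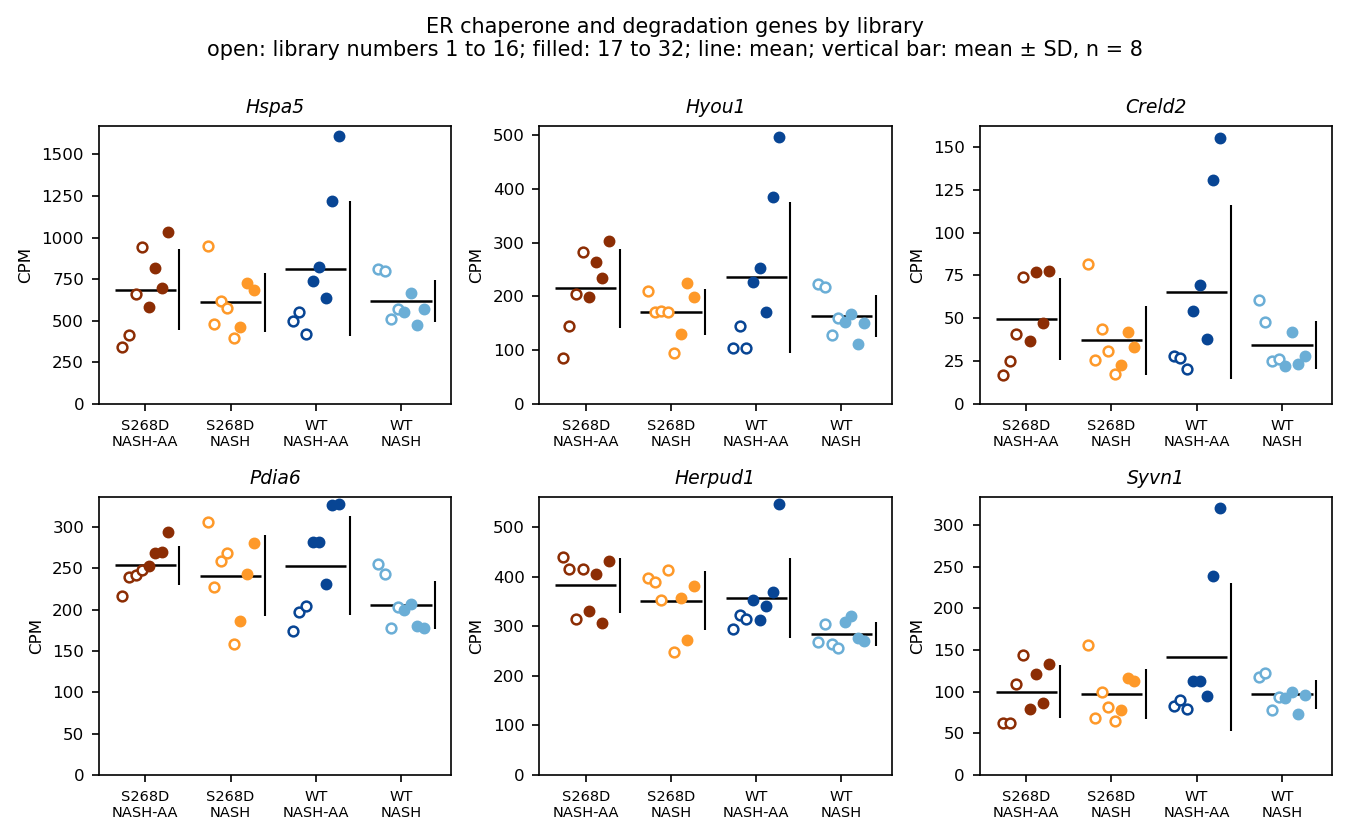
CPM of 4 ER chaperone or folding genes and 2 degradation genes in each library (points; open, library numbers 1 to 16; filled, 17 to 32), with the group mean (line) and mean ± SD (vertical bar), n = 8 per group. WT NASH-AA replicates 7 and 8, the 2 rightmost points of that group, are its 2 highest for Hspa5 at 1222 and 1609 CPM.

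Several ER chaperones and folding factors varied widely between libraries of the same group. Hspa5, on chr2:34771970-34777547 (GRCm38, plus strand), encodes BiP, the chief ER chaperone. It ranged from 340 to 1036 CPM in FAAH S268D livers on NASH-AA (median 678), 394 to 948 CPM in FAAH S268D livers on NASH (median 599), 423 to 1609 CPM in WT livers on NASH-AA (median 689) and 475 to 812 CPM in WT livers on NASH (median 572). All 4 ranges overlapped. Creld2, a secreted ER stress marker with disulfide isomerase activity, ranged from 16.9 to 77.8, 17.7 to 81.5, 20.4 to 155 and 22.1 to 60.4 CPM in those groups. Hyou1, the nucleotide exchange factor of BiP, ranged from 86.1 to 303, 94.5 to 224, 104 to 497 and 111 to 223 CPM.

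The other folding genes differed in how much they varied. Canx, calnexin, varied least of the 14, with a 1.48-fold span: it averaged 340 ± 23.5, 314 ± 29.6, 334 ± 42.0 and 309 ± 17.8 CPM in FAAH S268D NASH-AA, FAAH S268D NASH, WT NASH-AA and WT NASH livers (SD, n = 8 each). Calr averaged 907 ± 94.4, 866 ± 173, 896 ± 180 and 774 ± 117 CPM in those groups. Hsp90b1, which folds receptors and integrins, averaged 791 ± 152, 697 ± 117, 825 ± 256 and 645 ± 110 CPM in the same groups. The disulfide isomerases Pdia3, Pdia4 and Pdia6 spanned 1.96, 2.83 and 2.07-fold over the 32 libraries. Among BiP's partners of the DnaJ family, Dnajb11 ranged from 58.6 to 139 CPM, Dnajb9 from 26.9 to 79.6 CPM and Dnajc3 from 148 to 314 CPM over all libraries. Sdf2l1, which works with Dnajb11, and Manf, a small ER stress-induced protein that can be secreted, varied more. Sdf2l1 ranged from 23.8 to 47.0 CPM in FAAH S268D NASH-AA livers, 12.1 to 53.3 in FAAH S268D NASH livers, 18.3 to 72.2 in WT NASH-AA livers and 16.3 to 41.3 in WT NASH livers. Manf ranged from 42.0 to 117, 49.7 to 155.5, 46.2 to 178 and 58.3 to 108 CPM in those groups. For each of these genes the ranges of all 4 groups overlapped.

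Between NASH-AA and NASH in WT livers, the log2 fold changes of the 14 chaperones were all above 0, between 0.06 (Dnajb9) and 0.65 (Creld2), with a median of 0.26 against 0.01 for all genes. Scaling by library totals alone, which moved the median of all genes to -0.12, left 12 above 0 and 2 below. In the main test over all 32 libraries, 0 of the 14 passed (3 with unadjusted p under 0.05), and Hspa5 had 0.27 ± 0.24 (adjusted p = 0.503, limma-voom). In FAAH S268D livers the same 14 values lay between 0.02 and 0.48, with a median of 0.11. The genotype comparisons gave medians of 0.08 on NASH (9 above 0 and 5 below) and -0.01 on NASH-AA (6 above 0 and 8 below). With library totals alone these became 3 above and 11 below on NASH, and 1 above and 13 below on NASH-AA, so no direction is given.

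The WT diet difference of the chaperones had opposite signs in the 2 ranges of library numbers. In numbers 1 to 16, which held WT NASH-AA replicates 1 to 3 and WT NASH replicates 1 to 4, all 14 values were below 0, with a median of -0.21 and -0.43 ± 0.33 for Hspa5. In numbers 17 to 32, which held WT NASH-AA replicates 4 to 8 and WT NASH replicates 5 to 8, all 14 were above 0, with a median of 0.58 and 0.73 ± 0.24 for Hspa5. There Pdia6, a protein disulfide isomerase, and Dnajc3, a co-chaperone of BiP that also inhibits PERK, passed (0.58 ± 0.11 and 0.47 ± 0.10, adjusted p = 0.0318 and 0.0359, limma-voom), with 1.17% of all genes. In a test of the difference between the ranges, 0 of the 34 genes and 0.00% of all genes passed. Without adjustment p was under 0.05 for 18 of the 34, among them 13 of the 14 chaperones, against 6.65% of all genes. The difference was 2.05 for Creld2 (adjusted p = 0.430), 1.58 for Hyou1 (adjusted p = 0.374) and 1.17 for Hspa5 (adjusted p = 0.529), as log2 values of limma-voom. This test was chosen after the signs had been seen. The chaperones moved together from library to library. The 14 signs and the 13 unadjusted p-values are therefore not independent of each other.

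**Figure D5:**
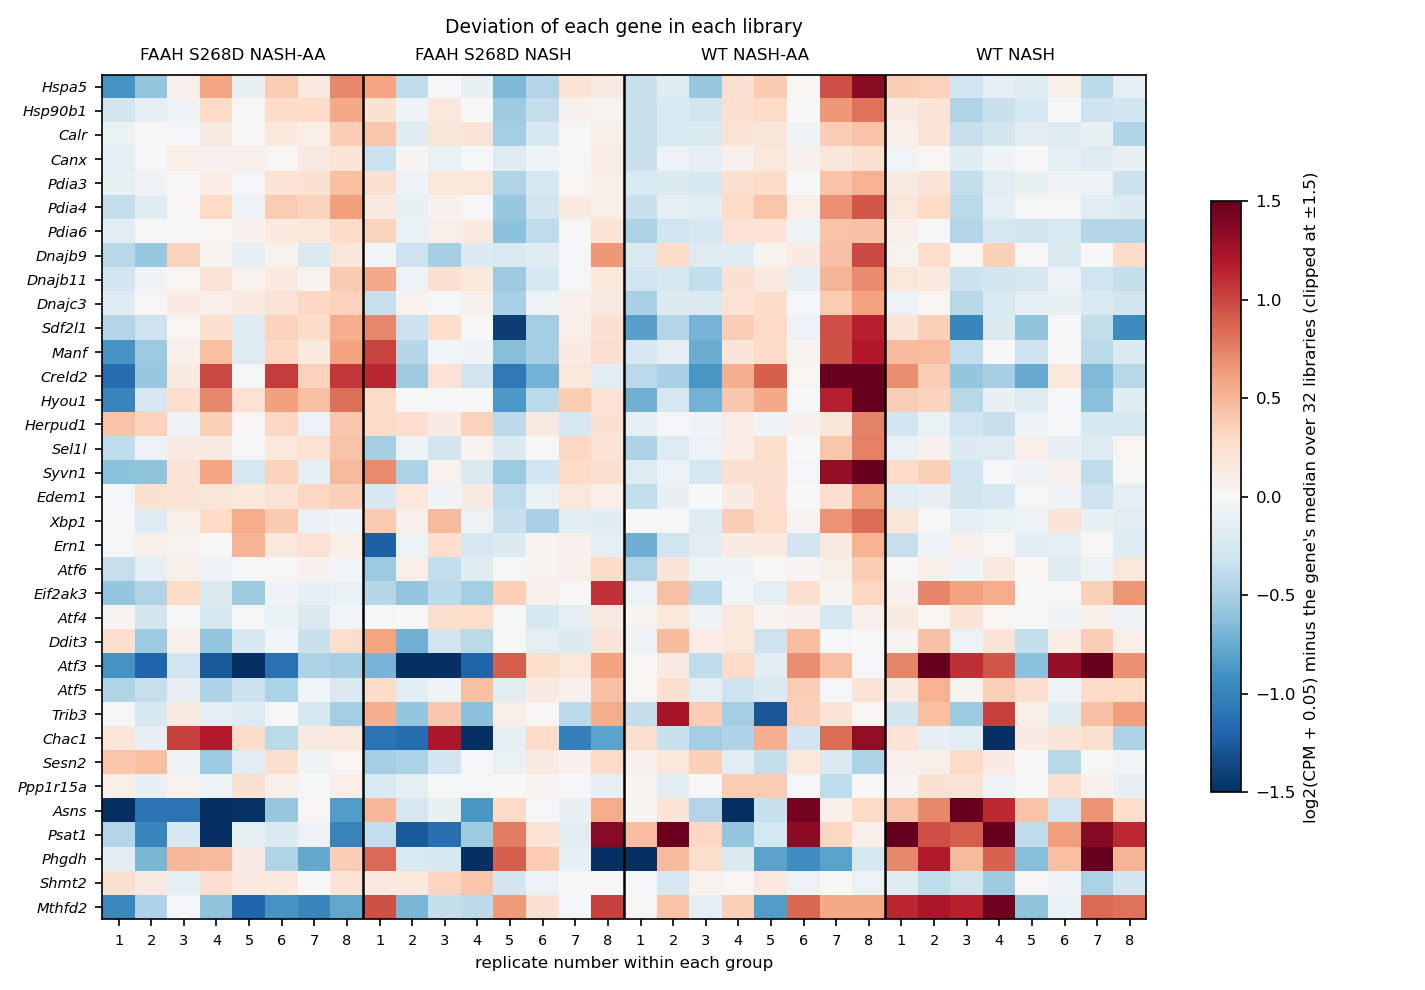
Log2(CPM + 0.05) of each of the 35 genes in each library minus that gene's median over the 32 libraries (colour, clipped at ±1.5), with libraries in columns by group and replicate. The column of WT NASH-AA replicate 8 is red for the 18 chaperone and degradation genes, and that of FAAH S268D NASH replicate 5 is blue for them.

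Single libraries stood apart over the whole set of chaperones. WT NASH-AA replicate 8 was the highest of the 32 libraries for 14 of the 14 chaperones and also for the 4 degradation genes, with Hspa5 at 1609 CPM. WT NASH-AA replicate 7 was second for 8 of the 14, with Hspa5 at 1222 CPM. FAAH S268D NASH replicate 5 was the lowest of the 32 for 8 of the 14 and among the 8 lowest for all 14, and FAAH S268D NASH-AA replicate 1 was the lowest for 4. Without WT NASH-AA replicates 7 and 8, left out after they had been seen, the WT diet difference was above 0 for 10 chaperones and below 0 for 4, with a median of 0.07 and -0.03 ± 0.22 for Hspa5. Without replicate 8 alone the median was 0.15.

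Genes of other cells with a large secretory load were looked at in the same libraries. The summed level of 12 B and plasma cell markers was 190 CPM in WT NASH-AA replicate 7 and 312 CPM in replicate 8, within the range of their group (190 to 552 CPM, against 181 to 365 CPM in WT livers on NASH), and 0 of the 10 tested passed. Over the 32 libraries Sdc1, Ighm and Igkc reached 278, 217 and 126.5 CPM, the other markers at most 25.85 CPM (Derl3). The sum therefore mostly follows Sdc1, Ighm and Igkc and says little about others such as Cd79a (at most 4.08 CPM) and Mzb1 (at most 2.19 CPM). Bulk liver does not show which cells gave the reads of Sdc1, so the sum is no measure of plasma cells. Derl3 is also a gene of ER-associated degradation. Of 7 pancreatic acinar markers, Pnlip was at 0 in all 32 libraries, Cpa1 in 31, Ctrb1 in 30, Prss2 in 29 and Amy2a5 in 27. Cela1 was at 0 in no library and reached 22.5 CPM, while Cela2a, the next highest, reached 0.476 CPM. The sum of the 7, mostly Cela1, was 10.6 and 8.62 CPM in WT NASH-AA replicates 7 and 8. The range of their group was 8.18 to 13.4 CPM, against 6.96 to 10.4 CPM in WT livers on NASH. Other cell markers moved in the WT diet comparison. Of 12 monocyte and macrophage markers, 3 fell on NASH-AA (Itgam, Cd14 and Cd9, against 2.97% of all genes), with a median log2 fold change of -0.71 and sums of 505 to 714 CPM in WT livers on NASH-AA, against 481 to 1416 CPM in WT livers on NASH. Their sums were 685 and 505 CPM in WT NASH-AA replicates 7 and 8. Also lower were 2 of 7 tested cholangiocyte markers (Tspan8 and Cldn4) and 2 of 8 sinusoidal endothelial markers (Stab1 and Flt4). Of 12 hepatocyte markers, 3 rose (Ttr, Serpina1c and Cyp2c29, against 1.44% of all genes). The summed hepatocyte markers were 72010 and 89060 CPM in WT NASH-AA replicates 7 and 8, in a group range of 72010 to 95400 CPM, against 58540 to 86230 CPM in WT livers on NASH. The part of these cell types in the diet values of the 35 genes was not tested.

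The genes of ER-associated degradation did not pass either. Herpud1, which brings degradation factors together at the ER membrane and carries the ERSE-II printed above, had 248 to 414 CPM in FAAH S268D livers on NASH (median 369), against 257 to 321 CPM in WT livers on NASH (median 274). Over the highest WT library lay 6 of the 8 FAAH S268D libraries, and 1 lay under the lowest, with a log2 fold change of 0.30 ± 0.11 (adjusted p = 0.0792, limma-voom). In WT livers, NASH-AA libraries had 294 to 547 CPM, and the diet difference was 0.30 ± 0.11 (adjusted p = 0.0939). Edem1, a lectin that hands misfolded glycoproteins to degradation, gave 0.26 ± 0.10 for diet in WT livers (adjusted p = 0.0940) and 0.23 ± 0.10 in FAAH S268D livers (adjusted p = 0.317). Sel1l and Syvn1 form the core of the HRD1 ubiquitin ligase; Sel1l had group means between 157 and 182 CPM. Syvn1 ranged from 62.6 to 144 CPM (median 98.1) in FAAH S268D NASH-AA livers, 65.1 to 156 (median 90.8) in FAAH S268D NASH livers, 79.5 to 321 (median 104) in WT NASH-AA livers and 73.6 to 122 (median 95.1) in WT NASH livers. The highest were WT NASH-AA replicates 8 and 7, at 321 and 239 CPM.

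The sensors and Xbp1 did not pass. Xbp1 averaged 200 ± 38.3 CPM in FAAH S268D livers on NASH-AA, 181 ± 43.8 in FAAH S268D livers on NASH, 222 ± 58.0 in WT livers on NASH-AA and 179 ± 17.8 in WT livers on NASH (SD, n = 8 each). Atf6 was level, with group means between 86.7 and 92.3 CPM, and Ern1 had means between 42.4 and 51.7 CPM. Eif2ak3 had 14.03 to 44.8 CPM in FAAH S268D livers on NASH (median 18.6), against 21.1 to 35.1 CPM in WT livers on NASH (median 29.2), a log2 fold change of -0.39 ± 0.18 (adjusted p = 0.166, limma-voom). Eif2ak3 shares 485 exon bases (8.05%) with a gene on the opposite strand, and Hsp90b1 415 (10.3%).

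Other genes of these pathways were described through 9 further lists. In the genotype comparison on NASH, where 6.30% of all genes fell and 2.89% rose, 4 of 26 further ATF4 targets and amino acid transporters fell: Slc7a1, a cationic amino acid transporter (-0.74), Pck2, the mitochondrial phosphoenolpyruvate carboxykinase (-0.60), Aldh18a1 of proline synthesis (-0.83) and Gpt2, an alanine aminotransferase (-0.30). None of the 26 rose, and the list had a median of -0.16 against 0.00 for all genes. One of 20 further ER chaperones rose (Sil1, a nucleotide exchange factor of BiP, 0.28), as did 1 of 20 further degradation genes (Derl2, 0.31), 1 of 20 genes of ER targeting, translocon and COPII (Sec62, 0.18) and 1 of 20 cytosolic aminoacyl-tRNA synthetases (Yars, 0.41, adjusted p = 0.000782, limma-voom). Of 20 further genes of UPR signalling, Bcl2l11, a pro-apoptotic BH3 protein, fell (-0.47). Of 16 cytosolic heat shock genes, the near-identical Hspa1a and Hspa1b fell (-0.80 and -0.82), and their reads may have been divided between them. A count of 1 in 20 is near the share of all genes. In 18 genes of eIF2 control and in 12 mitochondrial chaperones and proteases 0 passed.

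Between diets in WT livers, where 2.97% of all genes fell and 1.44% rose, Slc7a1 and Pck2 were the 2 of the 26 ATF4 targets that fell (-0.83 and -0.79), and 0 rose. The alanyl-tRNA synthetase Aars rose (0.29) among the 20 synthetases, and Tmem33, an ER membrane protein, rose (0.25) among the 20 further genes of UPR signalling. Each of these counts is 1 or 2 genes. In the other 6 lists 0 passed. In FAAH S268D livers between diets, and between genotypes on NASH-AA, 0 genes of the 9 lists passed (limma-voom). Both comparisons had few calls in all genes.

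Whether the diet difference depended on genotype was tested as an interaction. With limma-voom, 0 of the 34 genes passed, as did 0.00% of all genes, and without adjustment p was under 0.05 for 0 of the 34 and for 4.21% of all genes. For Hspa5 the interaction, the diet difference in FAAH S268D minus that in WT livers, was -0.17 ± 0.33 (adjusted p = 0.947). The chaperones had a median of -0.14, and it became 0.10 without WT NASH-AA replicates 7 and 8. It was 0.25 (14 above 0) in the libraries numbered 1 to 16 and -0.35 (14 below 0) in those numbered 17 to 32.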

How the data were processed

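Per the labels' protocols, RNA of whole liver was prepared with TRIzol, and polyA libraries with a Tecan kit (Universal Plus mRNA-seq). The submitters' processing notes name STAR 2.7.10, Trim Galore 0.6.7, UMI-tools 1.1.2 and the GRCm38 build. Which program and annotation gave the counts, and whether strand was used, is not given in the sources used here. The values deposited by the authors are estimated counts of each gene in 1 table without scaling, with 0 columns of other samples. Of its 1775584 cells, 87.9% read as whole numbers and the rest had been altered as text by a spreadsheet (11.4% carried digit-grouping marks, others clock times or day fractions). They were turned back by fixed rules and rounded; 0.208% had 2 possible originals, and the one nearer the gene's median was taken. Because of these cells the unit was recorded as other than counts, so edgeR was not used.

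The test was limma-voom (limma 3.58.1, R 4.3.3) with own TMM factors (30% of log ratios and 5% of levels trimmed), a prior count of 0.5 and 1 mean per group over 32 libraries. Genes also needed 15 counts in total. CPM values are scaled by the TMM factors. Gene positions and exon lengths are from GENCODE M21, promoters from RefSeq. The members, the further lists and the alternatives were chosen with earlier results of these data known. All 35 members could be named; of the further lists, those that passed. Depth limits genes of few counts most, in the shallowest library above all. No 2 libraries of a group agreed within counting error. The code of the fit was checked on simulated counts of genes drawn independently, with set changes put in. That check does not show how well differences of the 35 genes could be detected. Alternatives were other scaling (median-of-ratios size factors, library totals alone), no filter or a stricter one, a replicate block, a term for the library number range or each range alone, the 2 groups alone, sample quality weights, limma-trend, the other reading of ambiguous cells, leaving out each library, and leaving out FAAH S268D NASH replicates 1 and 3. The same genes without WT NASH-AA replicates 7 and 8, and the test between library number ranges, were added after seeing the data. Replicate numbers were not treated as pairs in the main test. Over 48 same-numbered pairs the median correlation of deviations was 0.00486, and 13 were over 0.1. Differently numbered pairs were not set beside them.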

Additional observations from a re-analysis of the deposited data

Results flagged for a closer look

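Of the 140 combinations of 35 genes and 4 groups, 11 held a library far from the other 7 of its group, judged by Dixon's ratio at the 95% level. For independent, normally distributed values chance exceeds that level in about 1 in 20. The ratio was taken on CPM without a log scale, and the chaperones moved together. The 11 of 140 can therefore not be set against that rate. FAAH S268D NASH replicate 1, the shallowest library, held 3 of the 11: Manf at 155.5 CPM (others 49.7 to 92.3), Creld2 at 81.5 CPM (others 17.7 to 43.5) and Ern1, the lowest, at 19.9 CPM (others 39.4 to 55.8; 72 counts). WT NASH-AA replicate 8, the library highest for all 14 chaperones, held 2: Dnajb9, a BiP co-chaperone, at 79.6 CPM (others 34.3 to 54.4) and Herpud1 at 546.5 CPM (others 294 to 369). FAAH S268D NASH replicate 8 also held 2: Dnajb9 at 62.9 CPM (others 28.4 to 39.4) and Eif2ak3 at 44.8 CPM (others 14.03 to 27.1). The others were Ern1 at 66.3 CPM in FAAH S268D NASH-AA replicate 5 (others 45.9 to 54.3), Trib3 at 22.1 CPM in WT NASH-AA replicate 2 (others 3.79 to 12.1), Chac1 at 15.3 CPM in FAAH S268D NASH replicate 3 (others 1.98 to 8.05) and Asns at 2.71 CPM in WT NASH-AA replicate 6 (others 0.285 to 1.19; 65 counts).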

How the results depend on the processing

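With each library left out in turn, the number of genes past the threshold was 1 to 4 for FAAH S268D against WT on NASH (3 with all libraries). It was 1, Shmt2, without FAAH S268D NASH replicate 2, 3 or 4. For NASH-AA against NASH in WT livers it was 0 to 4 (0 with all libraries): 4 without WT NASH replicate 5 (Atf3, Psat1, Shmt2 and Mthfd2) and 1 without FAAH S268D NASH replicate 5, WT NASH-AA replicate 1 or WT NASH-AA replicate 2. For NASH-AA against NASH in FAAH S268D livers it was 0 to 1, the 1 being Atf5 without FAAH S268D NASH replicate 2 or 3 or FAAH S268D NASH-AA replicate 3. It was 0 throughout for FAAH S268D against WT on NASH-AA and for the interaction. Under other settings the count for genotype on NASH was 0 with libraries 17 to 32 alone or with the 2 groups alone, and 1 (Shmt2) without FAAH S268D NASH replicates 1 and 3; for genotype on NASH-AA it was 2 (Atf3 and Mthfd2) with the 2 groups alone or with sample quality weights. For diet in WT livers it was 1 (Atf5) with library totals alone, 2 with libraries 17 to 32 alone and 9 with sample quality weights (2 of them chaperones, Pdia6 and Dnajc3); for diet in FAAH S268D livers it was 1 (Atf5) with sample quality weights or without FAAH S268D NASH replicates 1 and 3. The share of all genes that passed moved with the setting too. For diet in WT livers it was 4.41% with all libraries and 14.7% without WT NASH replicate 5. It was 25.2% with sample quality weights and 1.17% in libraries 17 to 32 alone. For genotype on NASH it was 9.19% with all libraries and 0.105% in libraries 17 to 32 alone. Counts under the other settings are given without that share and say nothing about the list by themselves. The cause of these shifts was not tested. Atf3, Psat1 and Shmt2 kept their direction on NASH under every alternative run. Values that had not passed changed sign: the chaperones' median diet difference in WT livers was -0.21 in libraries 1 to 16 and 0.58 in 17 to 32, that of the interaction was 0.25 and -0.35, and Hspa5's diet difference in WT livers was -0.03 without WT NASH-AA replicates 7 and 8. For genotype on NASH, the chaperones' median was -0.08 with library totals alone, and Mthfd2 was 0.10 in libraries 17 to 32. With the replicate block the genotype count on NASH was 2, Psat1 being lost (adjusted p = 0.0906, limma-voom), and the block changed no other count of these genes. Leaving out single libraries, Atf3 lay between -1.52 and -1.07, Psat1 between -1.35 and -0.96 and Shmt2 between 0.32 and 0.42. Psat1, Asns, Mthfd2 and Phgdh had low counts and also varied between libraries of a group, so small differences may have gone undetected. In WT livers on NASH the SD of their CPM was 40.6, 48.3, 39.8 and 54.4% of the mean. How much of this came from depth was not tested.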
